A study of Mus musculus with 5 samples.

Results

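The 10 genes described here encode receptors of the TNF receptor superfamily, namely Tnfrsf1a, Tnfrsf1b, Ltbr, Tnfrsf9, Cd40, Fas, Tnfrsf11b, Tnfrsf12a, Tnfrsf21 and Tnfrsf14. They were found by symbol, as every probe set that the platform annotation gives to 1 of these genes and to no other gene, which gave 18 of the 45101 probe sets on the array. All 10 genes had at least 1 probe set, and 6 of them had several. RNA was measured on 5 one-colour arrays of cultured mouse cells. Of these, 2 arrays were titled TNF-LTBR and 3 were titled control. All 5 carry a time of 24 h in the title, the C57BL/6J background and a label of aortic endothelial cells, grown in one medium with heparin and endothelial growth supplement. All 5 samples share 1 treatment text, on stimuli in PBS and on PBS alone, so only the titles set the TNF-LTBR arrays apart. The labels state neither the agonists meant by TNF-LTBR nor their doses. They also do not say whether arrays came from separate cultures, and every p therefore measures array-to-array spread that may be technical.

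Receptors of this superfamily bind trimeric ligands of the TNF superfamily outside the cell and recruit adaptor proteins inside it. Receptors with a death domain, such as the TNF receptor encoded by Tnfrsf1a, gather TRADD or FADD and can lead to NF-kB activation or to caspase-8 and cell death. Receptors without one bind TRAF proteins directly, and several of these, the lymphotoxin beta receptor encoded by Ltbr among them, free the kinase encoded by Map3k14 and so start the non-canonical NF-kB pathway. Osteoprotegerin, the product of Tnfrsf11b, is secreted and acts as a decoy. In vessels the family is known for inflammatory activation of the endothelium and for the organisation of lymphoid tissue. The comparison asked whether the receptors' own transcripts were at other levels on the TNF-LTBR arrays than on the controls.

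The arrays did not group by title over all genes. Over the 27060 probe sets with the highest mean, the brightest 60% of the table, called the brightness filter below, the closest arrays were TNF-LTBR array 2 with control array 3 (r = 0.977) and TNF-LTBR array 1 with control array 2 (r = 0.973), while the TNF-LTBR arrays correlated with each other at 0.923 and the control arrays at 0.923 to 0.957. The first principal component held 59.4% of the variance and placed TNF-LTBR array 2 (0.44) and control array 3 (0.57) opposite TNF-LTBR array 1 (-0.55) and control array 2 (-0.42), with control array 1 near the middle (-0.05). These correlations run across genes, which are not independent replicates. The endothelial label was not borne out by every defining marker. Of 12 endothelial markers, 3 lay above the array median on all 5 arrays, namely Eng at 1550.2 to 1858.3, Plvap at 401.3 to 759.3 and Kdr at 255.1 to 364.2, and 2 lay below it on all 5, Vwf and Tie1. Vwf, which encodes von Willebrand factor, had intensities of 5.8 and 2.9 on the TNF-LTBR arrays and 7.2, 7.1 and 2.3 on the control arrays. Cdh5, which encodes VE-cadherin, had 135.1 and 28.7 on the TNF-LTBR arrays and 235.6, 123.2 and 55.3 on the control arrays. All 9 fibroblast and pericyte markers lay above the array median on every array, Col1a2 between 17596.6 and 20691.4. No marker was at 0 on all arrays. In such bulk cultures fewer cells of a type and less RNA per cell cannot be told apart.

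**Figure D1:**
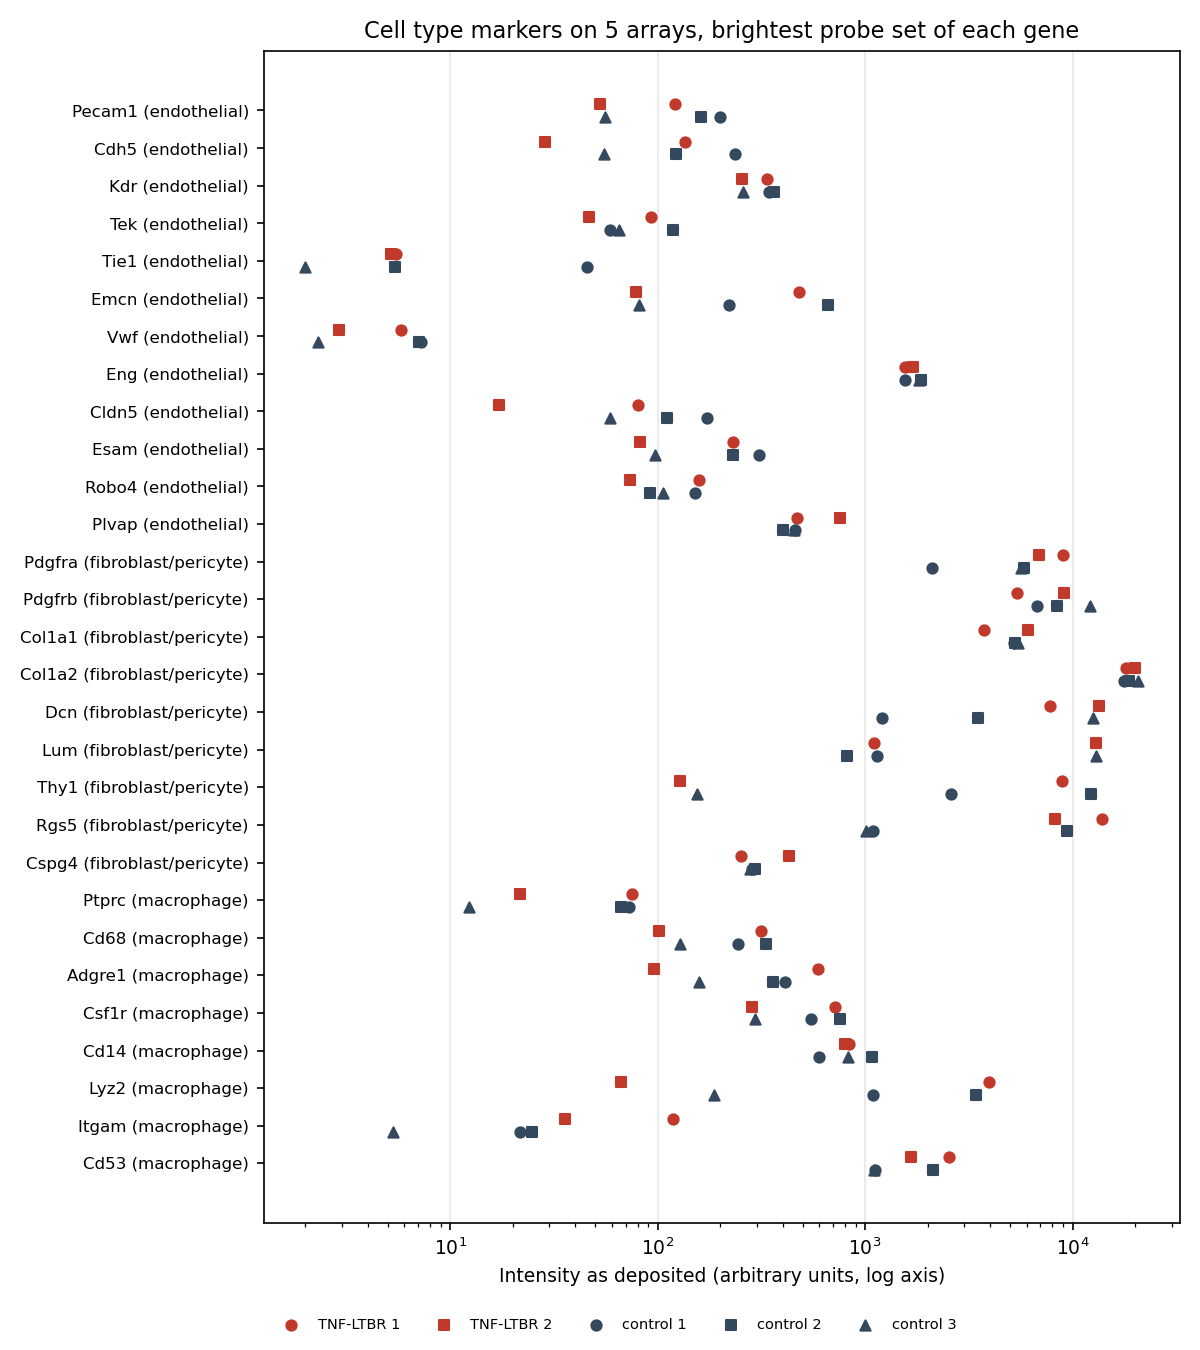
Intensity as deposited (log axis, arbitrary units) of endothelial, fibroblast or pericyte, and macrophage markers, 1 row per gene and 1 point per array, TNF-LTBR arrays in red above control arrays in dark blue. Vwf lies at 2.3 to 7.2 and all 9 fibroblast and pericyte genes lie above the array medians on every array, while Thy1, Lum and Lyz2 split the arrays within each title.

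Over all 45101 probe sets, no probe set passed the limma test at an adjusted p under 0.05 (percent called 0), and no receptor probe set passed. At an unadjusted p under 0.05, 1369 probe sets passed, 744 higher in TNF-LTBR (1.65%) and 625 lower (1.39%). Among the 18 receptor probe sets, 2 were higher at that level, both of Tnfrsf9, and none was lower. Both TNF-LTBR arrays exceeded every control array for 4 of the 18, against 8.80% of all probe sets, and fell short of every control for 0 of the 18, against 6.84%. Of these 4, 3 were the probe sets of Tnfrsf9 and 1 that of Tnfrsf14. The median difference over the 18 was 0.10 on the log2(intensity + 16) scale, against 0.01 over all probe sets, with 11 higher and 7 lower, and it was -0.02 without control array 3 and 0.33 without control array 2. For 13 of the 18 the difference was smaller than the SD within groups, a count that was not made over all probe sets. Differences and SDs below are on this scale, which understates changes of dim probe sets, and means are given with SD (n = 2 TNF-LTBR and n = 3 control arrays). The adjusted p in limma was 0.99988 for each of the 18.

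**Figure D2:**
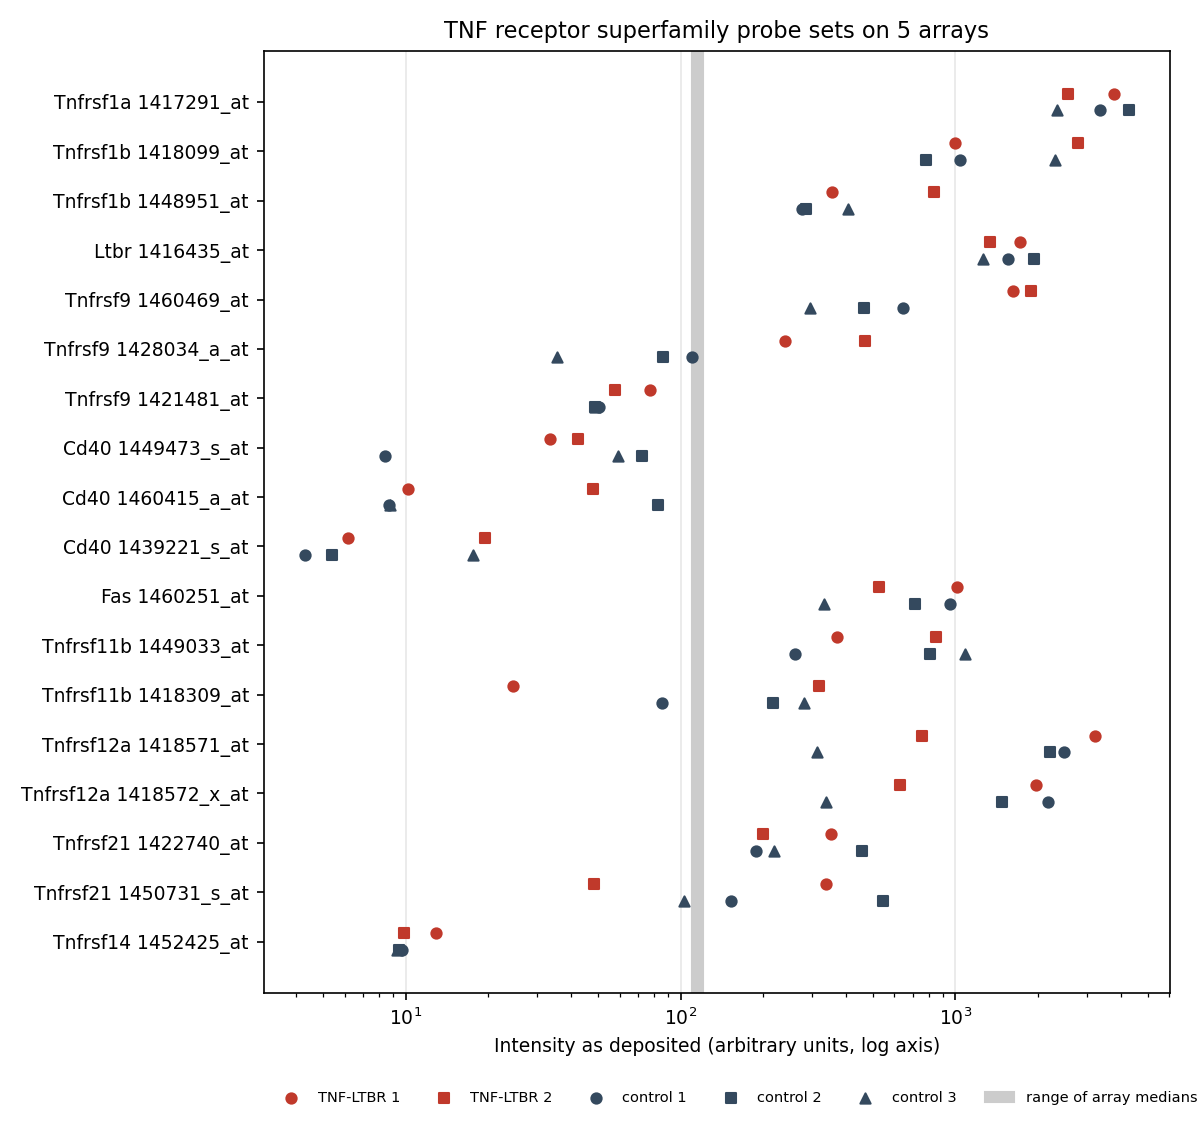
Intensity as deposited (log axis, arbitrary units) of the 18 receptor probe sets, 1 row per probe set and 1 point per array, TNF-LTBR arrays in red above control arrays in dark blue. The grey band is the range of the array medians, 109.9 to 120.7. Only for the 3 Tnfrsf9 rows and the Tnfrsf14 row do both red points lie right of all dark blue points.

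Among the 6 receptors that bind TRAF proteins and have no death domain, Tnfrsf9 had the highest difference. It encodes a costimulatory receptor best known from activated T cells, which is also made by endothelial cells under inflammatory stimuli. Its brightest probe set, 1460469_at, had intensities of 1619.8 and 1885.6 on the TNF-LTBR arrays and 643.5, 465.6 and 297 on the control arrays. The lowest TNF-LTBR array was thus well above the highest control, and the TNF-LTBR arrays were within 1.16-fold of each other while the controls spread over 2.17-fold. The means were 10.78 ± 0.15 in TNF-LTBR and 8.86 ± 0.54 in control, a difference of 1.93 (SE 0.32, 95% interval 1.14 to 2.72), or 3.81-fold.

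The other probe sets of Tnfrsf9 kept that order of the groups. Probe set 1428034_a_at had 240.1 and 468.7 on the TNF-LTBR arrays and 110.3, 86.4 and 35.5 on the control arrays, a difference of 2.01 (SE 0.49, 95% interval 0.81 to 3.22). Probe set 1421481_at, which was dim, had 77.4 and 57.7 on the TNF-LTBR arrays and 50.6, 48.8 and 49 on the control arrays, a difference of 0.34 (SE 0.29, 95% interval -0.36 to 1.05). The interval of the dim probe set includes 0 and those of the other two do not. The control arrays fell in the same order on both brighter probe sets, with control array 1 highest and control array 3 lowest, whereas TNF-LTBR array 2 was the higher of its group on these and the lower on 1421481_at. Leaving out any 1 array kept the difference between 1.65 and 2.18 for 1460469_at and between 1.55 and 2.47 for 1428034_a_at. Without control array 3 and TNF-LTBR array 2, which lie opposite TNF-LTBR array 1 and control array 2 on the first component, the differences were 1.54 for 1460469_at and 1.17 for 1428034_a_at, both below those ranges. No probe set of the table passed there either (2596 at an unadjusted p under 0.05), and that fit has 2 control arrays and 1 TNF-LTBR array. Of the T cell markers, Cd3e had 26.3 and 18.7 on the TNF-LTBR arrays and 23.4, 53.7 and 20 on the control arrays, below the array medians, as was Cd4 on all 5 arrays. Cd8a, by a probe set with the suffix of shared sequence, had 459.7 and 284.3 on the TNF-LTBR arrays and 308.8, 460 and 298.4 on the control arrays, above the array medians. The groups overlapped for all 3 markers, and the part of T cells in the Tnfrsf9 values was not tested.

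The promoter windows of Tnfrsf9 are shown because its values separated the groups on 3 probe sets and because the series title concerns NF-kB. RefSeq (GRCm38.p6) gives this gene 2 starts on chromosome 4, both on the plus strand, and each window runs from 250 bases before the start to 50 after it. Capitals mark matches to the NF-kB consensus motif, 10 letters long, searched on both strands.
Tnfrsf9 first start, chr4:150919905-150920204: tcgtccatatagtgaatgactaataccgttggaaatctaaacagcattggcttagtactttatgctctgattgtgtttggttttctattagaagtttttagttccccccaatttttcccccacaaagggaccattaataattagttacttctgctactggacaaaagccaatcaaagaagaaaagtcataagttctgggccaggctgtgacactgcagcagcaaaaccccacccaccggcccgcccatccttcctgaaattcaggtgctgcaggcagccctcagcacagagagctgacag
Tnfrsf9 second start, chr4:150927749-150928048: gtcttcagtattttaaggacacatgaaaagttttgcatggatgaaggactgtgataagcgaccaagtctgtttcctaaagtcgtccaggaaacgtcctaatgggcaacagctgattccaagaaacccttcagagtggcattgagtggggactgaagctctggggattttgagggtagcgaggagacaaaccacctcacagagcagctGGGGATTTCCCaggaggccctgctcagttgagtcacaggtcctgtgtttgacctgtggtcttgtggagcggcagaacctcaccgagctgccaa
The second window holds overlapping matches, at bases 208 to 217 on the plus strand and at bases 209 to 218 on both strands, from base -43 to base -33 relative to the start. The first window holds none. Of all 32851 windows in the table, 4.51% hold a match. Windows were found for 8 of the 10 receptor genes, 9 windows in all, and this was the 1 window with a match. A variant of the motif with other letters free, held by 6.4% of all windows, was matched in 2 of the 9, this window and that of Fas. A match is a run of letters and was not tested as a binding site.

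The 5 probe sets with the most similar pattern to Tnfrsf9 were sought among 23057 probe sets with 1 symbol past the brightness filter, by the root mean square distance between log2 values centred on each probe set's mean over the 5 arrays. The nearest was Nfkb2, whose product is processed in the non-canonical pathway, at a distance of 0.15. It had intensities of 1154.8 and 1201.9 on the TNF-LTBR arrays and 417.7, 321.6 and 251.5 on the control arrays, with the same order among controls as Tnfrsf9. The other Nfkb2 probe set, 1429128_x_at, had 459.6 and 476.2 on the TNF-LTBR arrays and 200, 233.8 and 293.4 on the control arrays, the reverse order among controls. Cldn1, which encodes a tight junction protein, followed at 0.15 with 305.9 and 330.8 on the TNF-LTBR arrays and 125.8, 58.7 and 43 on the control arrays. The second Tnfrsf9 probe set came next at 0.25, then Junos, a transcript named for its place opposite Jun, at 0.27, and Nfkbie, which encodes an NF-kB inhibitor, at 0.31. On all 5 of these probe sets both TNF-LTBR arrays exceeded the 3 controls, a separation the choice by distance brings with it.

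**Figure D3:**
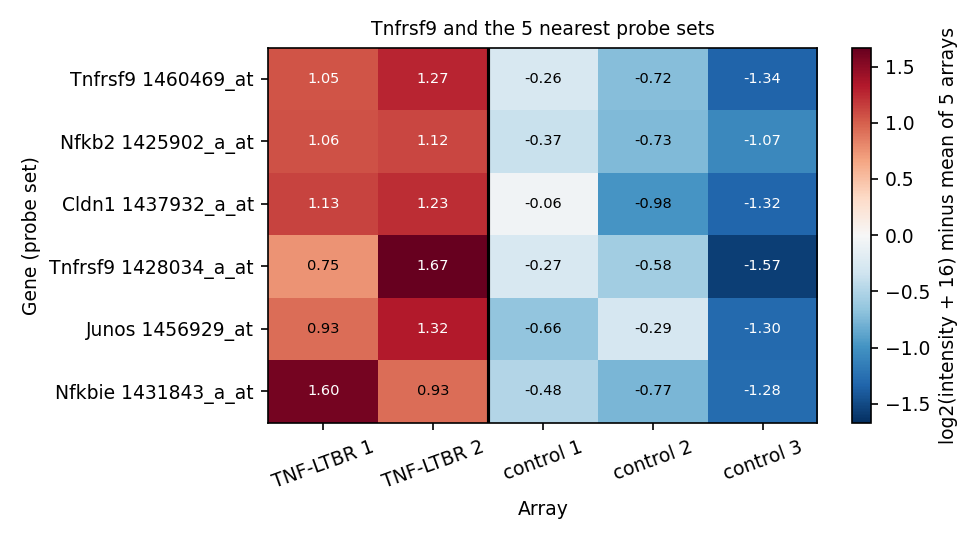
log2(intensity + 16) of Tnfrsf9 and its 5 nearest probe sets, centred on each row's mean over 5 arrays (colour and printed value), with TNF-LTBR arrays left of the black line and control arrays right of it. All 12 TNF-LTBR cells are positive, all control cells are negative, and control array 3 is the lowest in every row.

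Tnfrsf1b encodes the other TNF receptor, which responds chiefly to membrane-bound TNF. Its probe set 1418099_at had 998.9 and 2783.5 on the TNF-LTBR arrays and 1042.5, 783.8 and 2300.2 on the control arrays. TNF-LTBR array 2 and control array 3 were high and the other 3 arrays low, so the groups overlapped, with a difference of 0.43 (SE 0.58, 95% interval -0.99 to 1.85). Probe set 1448951_at had 355.8 and 833.4 on the TNF-LTBR arrays and 276.7, 286.4 and 405 on the control arrays. Here again TNF-LTBR array 2 and control array 3 were the highest of the 5, and the difference was 0.75 (SE 0.39, 95% interval -0.19 to 1.70). Without TNF-LTBR array 2 the differences were -0.30 and 0.15, and without TNF-LTBR array 1 they were 1.16 and 1.35, so the size rests on which TNF-LTBR array is kept.

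Ltbr, the receptor for membrane lymphotoxin and LIGHT and the namesake of LTBR in the group's title, had 1716.5 and 1338.4 on the TNF-LTBR arrays and 1548.1, 1929.9 and 1261.6 on the control arrays. The TNF-LTBR values lay inside the range of the controls, which spread over 1.53-fold. The difference was -0.04 (SE 0.22), with a 95% interval of -0.59 to 0.51 that leaves room for a change of either sign.

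Tnfrsf12a encodes the receptor for TWEAK and is induced by growth factors and injury in vessel wall cells. Its probe set 1418571_at had 3228.2 and 753.6 on the TNF-LTBR arrays and 2485.6, 2216.4 and 313.9 on the control arrays. TNF-LTBR array 2 and control array 3 were far below the other 3 arrays, and the within-group SD of 1.59 exceeded that of 98.9% of the probe sets past the brightness filter. Probe set 1418572_x_at, whose suffix marks sequence that other transcripts may share, had 1965.2 and 629 on the TNF-LTBR arrays and 2165.1, 1474 and 339.1 on the control arrays, with the same arrays low. The differences were 0.37 (SE 1.03) and 0.11 (SE 0.85). Without control array 3 they turned to -0.58 and -0.67, and without TNF-LTBR array 2 they were 1.40 and 0.92.

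Cd40, a receptor through which T cells activate B cells, antigen-presenting cells and endothelium, was dim on its 3 probe sets, none of which was among the brightest 60%. Its highest value was 48.1 on the TNF-LTBR arrays and 82.9 on the control arrays. Probe set 1449473_s_at had 33.6 and 42.4 on the TNF-LTBR arrays and 8.4, 72.2 and 59.3 on the control arrays, and all 3 probe sets overlapped, with differences of -0.02, 0.06 and 0.20. The probe sets did not follow each other across arrays: 1460415_a_at had 10.2 and 48.1 on the TNF-LTBR arrays and 8.7, 82.9 and 8.8 on the control arrays. Every Cd40 value lay below the array medians, and the 95% interval of 1460415_a_at ran from -1.73 to 1.86.

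Tnfrsf14 encodes the herpesvirus entry mediator, a receptor of LIGHT that also engages inhibitory partners on lymphocytes. Its 1 probe set had 12.9 and 9.9 on the TNF-LTBR arrays and 9.7, 9.5 and 9.3 on the control arrays. The groups did not overlap, but all 5 values lay below the added 16 and the gap between the groups was smaller than the spread of the TNF-LTBR arrays. The difference was 0.10 (SE 0.20), and it was 0.02 without TNF-LTBR array 1.

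Of the 3 receptors with a death domain, which are represented by 4 probe sets, none separated the groups. Tnfrsf1a, the main receptor of soluble TNF, had 3776.9 and 2571.8 on the TNF-LTBR arrays and 3360.1, 4273.4 and 2348.1 on the control arrays. As for Ltbr, TNF-LTBR array 2 and control array 3 were the lowest of the 5, and the difference was -0.05 (SE 0.29, 95% interval -0.77 to 0.67). Fas, the receptor of Fas ligand that recruits FADD and caspase-8, had 1014.9 and 526.9 on the TNF-LTBR arrays and 956.2, 714.8 and 331.7 on the control arrays. The same arrays were low, and the difference of 0.25 (SE 0.49, 95% interval -0.95 to 1.46) was -0.17 without control array 3 and 0.72 without TNF-LTBR array 2.

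Tnfrsf21 encodes death receptor DR6, studied mostly in neurons and lymphocytes. Its probe set 1422740_at had 353.5 and 199.6 on the TNF-LTBR arrays and 188, 457.3 and 219.2 on the control arrays, a difference of -0.00477 (SE 0.44). Probe set 1450731_s_at had 337.2 and 48.3 on the TNF-LTBR arrays and 152.4, 545 and 103.4 on the control arrays, a difference of -0.57 (SE 0.92). TNF-LTBR array 1 and control array 2 were the highest on both probe sets, and both differences turned positive without TNF-LTBR array 2 (0.38 and 0.66).

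Tnfrsf11b, which encodes the secreted decoy osteoprotegerin that binds RANKL and TRAIL, had 371.9 and 847 on the TNF-LTBR arrays and 261.2, 809.3 and 1083.2 on the control arrays by probe set 1449033_at. Probe set 1418309_at had 24.5 and 318.1 on the TNF-LTBR arrays and 85.6, 217.5 and 281.2 on the control arrays. On both probe sets TNF-LTBR array 1 and control array 1 were the lowest of the 5 and the groups overlapped. The differences were -0.13 (SE 0.65) and -0.72 (SE 0.94), and without TNF-LTBR array 1 they were 0.45 and 0.80.

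**Figure D4:**
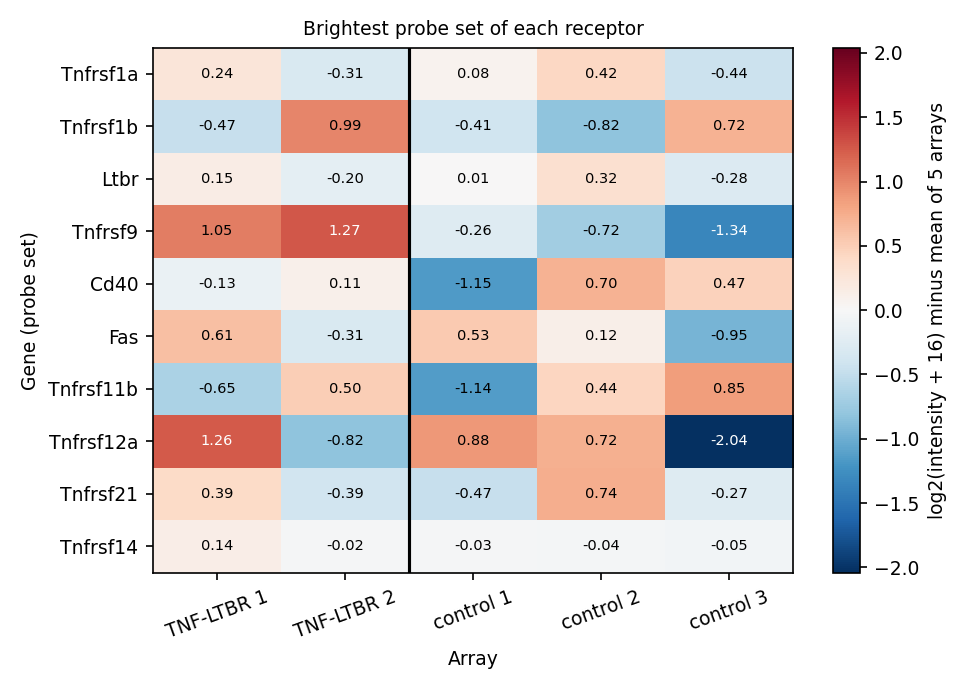
log2(intensity + 16) of the brightest probe set of each receptor, centred on the mean of the 5 arrays (colour and printed value), with TNF-LTBR arrays left of the black line and control arrays right of it. Tnfrsf9 is positive on both TNF-LTBR arrays and negative on all controls, while Tnfrsf1a, Ltbr, Fas, Tnfrsf12a and Tnfrsf21 are negative on TNF-LTBR array 2 and control array 3, and Tnfrsf1b is positive there.

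The receptors also varied within titles. Control array 3 was the lowest of the 5 for 8 of the 18 probe sets, against 21.5% of all probe sets, and control array 1 for 6, against 20.2%. TNF-LTBR array 2 and control array 2 were each the highest for 6 of the 18, against 15.5% and 14.9% of all probe sets. The within-group SD of 9 of the 18 exceeded the 90th percentile of the probe sets past the brightness filter. Markers of other cells also differed within titles. The summed intensity of the 8 macrophage markers was 9116.6 and 3064.5 on the TNF-LTBR arrays and 4093.1, 8157.1 and 2719.7 on the control arrays, that of the 4 lymphatic endothelial markers, mostly Pdpn, was 11494.4 and 515.2 on the TNF-LTBR arrays and 1450.6, 8233 and 435.2 on the control arrays, and that of the 12 endothelial markers was 3676 and 3095.1 on the TNF-LTBR arrays and 3754.9, 4132.7 and 3046.1 on the control arrays. These sums were low on TNF-LTBR array 2 and control array 3, as were Tnfrsf1a, Ltbr, Fas and Tnfrsf12a. Tnfrsf1b and Tnfrsf11b went the other way, with these arrays highest on each of their probe sets. Eng, the brightest endothelial marker, was not low there, at 1693.5 and 1811.2. Of the sums given next, that of smooth muscle was also lowest on these arrays, and that of fibroblasts and pericytes was highest. A sum follows its brightest genes, and single markers differed. Pdgfrb, Col1a1, Col1a2, Dcn and Lum were highest on these arrays, but Thy1 was lowest (127.9 and 154.6) and Pdgfra, Rgs5 and Cspg4 were mixed. Acta2, Tagln and Myocd were lowest there. Smtn was not, at 1505.9 and 1577 against 967.7 on TNF-LTBR array 1 and 1079.6 on control array 2, nor were Lmod1 and Tpm2. The sum of the 9 smooth muscle markers was 13389.6 and 11163.7 on the TNF-LTBR arrays and 24082.4, 19815.7 and 11754.7 on the control arrays, and that of the 9 fibroblast and pericyte markers was 68138.4 and 77295.6 on the TNF-LTBR arrays and 37973.4, 64592.4 and 70873 on the control arrays. Of 6 lymphocyte markers 5 were measured, with sums of 718.5 and 485 on the TNF-LTBR arrays and 521.7, 725.6 and 571 on the control arrays. The part of these cells in the receptor values was not tested.

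By the same distance, the most similar pair among the 45 pairs of receptors was Tnfrsf1a with Ltbr (0.11), against a median of 0.91 over all pairs. On both, control array 2 was the highest and control array 3 the lowest. In the RefSeq table (GRCm38.p6) these genes lie on chromosome 6 with 1 protein-coding gene between them, Scnn1a. Whether their position bears on the values was not tested. The distance is small wherever both probe sets vary little, and the next closest pair was Ltbr with the dim Tnfrsf14 (0.21). The least similar pair was Tnfrsf1b with Tnfrsf12a (1.89), which ran in opposite directions on TNF-LTBR array 2 and control array 3. Tnfrsf9 had no close partner: its nearest receptor was Fas, at 0.91. Probe sets of 1 gene lay between 0.25 (Tnfrsf9, its brighter ones) and 1.00 (Tnfrsf9, 1428034_a_at with the dim 1421481_at) apart.

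**Figure D5:**
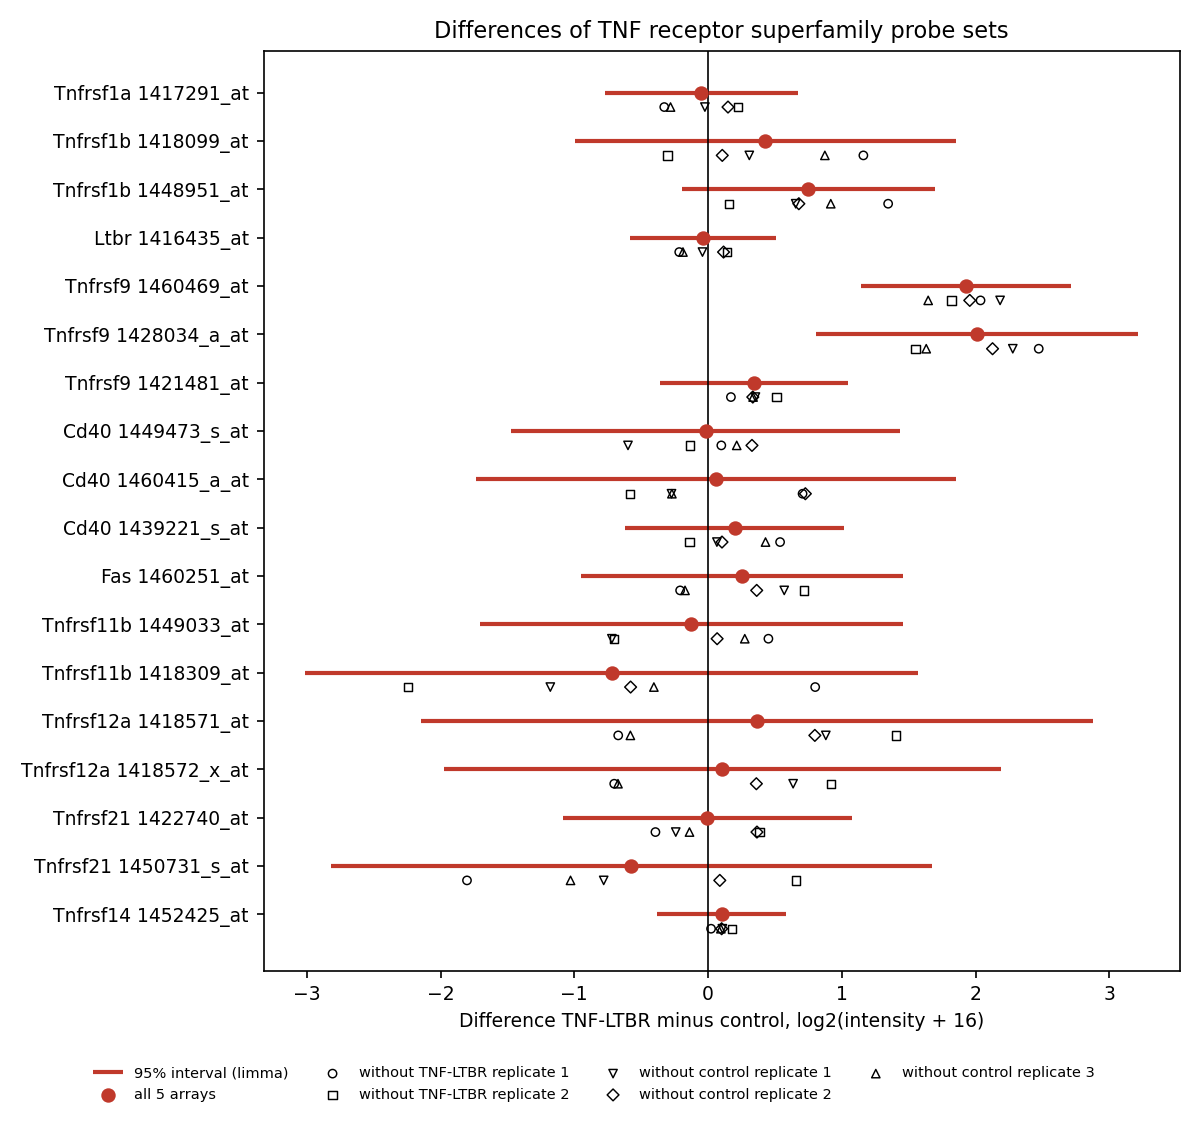
Difference TNF-LTBR minus control on the log2(intensity + 16) scale for the 18 receptor probe sets: red points are the fit to all 5 arrays, red lines its 95% interval in limma, and open symbols the fits that leave out 1 array. The intervals of Tnfrsf9 1460469_at and 1428034_a_at lie right of 0, and for 13 of the 18 the open symbols fall on both sides of 0.

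The ligands of the superfamily, from a list of 18, were measured for 14 genes by 25 probe sets, of which 6 were among the brightest 60%. None passed over all probe sets. Both TNF-LTBR arrays exceeded every control for 3 of the 25 (12%) and fell short of every control for 2 (8%), near the 8.80% and 6.84% of all probe sets, and the median difference was 0.14. Tnf had 19.3 and 14.8 on the TNF-LTBR arrays and 12.5, 12.6 and 16.9 on the control arrays, with overlap. Lta had 13.9 and 36.7 on the TNF-LTBR arrays and 14.6, 34.1 and 8.1 on the control arrays, and Ltb had 22.2 and 3.7 on the TNF-LTBR arrays and 4.3, 5 and 4.2 on the control arrays. All 3 of these ligands of Tnfrsf1a and Ltbr thus stayed far below the array medians.

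Tnfsf9, the ligand of Tnfrsf9, had 796.8 and 1108.4 on the TNF-LTBR arrays and 909.5, 687.6 and 1028.6 on the control arrays. The groups overlapped, and the difference was 0.12 (SE 0.24), below that of its receptor. The LIGHT gene Tnfsf14 stayed at 2 to 16.1 on its probe sets. The Cd40 ligand gene Cd40lg had 158.9 and 89.5 on the TNF-LTBR arrays and 90.2, 26 and 80.6 on the control arrays. Fasl reached at most 43.3 on the TNF-LTBR arrays and 60.9 on the control arrays, and Tnfsf11, which encodes RANKL, at most 37.6 on the TNF-LTBR arrays and 43.3 on the control arrays. Tnfsf12, Tnfsf13, Tnfsf15 and Tnfsf18 were not analysed here. The 3 ligand probe sets with the smallest p were all of Eda, which encodes ectodysplasin, and they disagreed in direction, at 1.13 (1451877_at), -1.41 (1449524_at) and -0.96 (1419597_at). None of the 3 was among the brightest 60%, and 1451877_at had 43.8 and 22.3 on the TNF-LTBR arrays and 2.9, 7.8 and 7.1 on the control arrays. The other Eda probe sets overlapped, at -0.44 (1451925_at) and -0.07 (1419596_at).

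Another 17 receptors of the superfamily were measured by 26 probe sets, of which 10 were among the brightest 60%. None passed, the median difference was 0.21, and both TNF-LTBR arrays exceeded every control for 3 (11.5%) and fell short of every control for 0, against 8.80% and 6.84% of all probe sets. The smallest p values were those of Cd27, a costimulatory receptor of lymphocytes, Tnfrsf4 and the decoy receptor gene Tnfrsf22. Tnfrsf4, which encodes a costimulatory receptor close in function to that of Tnfrsf9, had 496.8 and 418 on the TNF-LTBR arrays and 308.2, 400.6 and 355.7 on the control arrays, a difference of 0.35 (SE 0.20) without overlap. Cd27 had 39.3 and 39.2 on the TNF-LTBR arrays and 28.1, 7.2 and 22.8 on the control arrays. Tnfrsf22 (1422039_at) had 463.3 and 286.5 on the TNF-LTBR arrays and 260, 309.5 and 156.7 on the control arrays, with overlap.

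Adaptors and regulators just below the receptors were measured for 13 of 15 genes by 30 probe sets. None passed over all probe sets, and both TNF-LTBR arrays exceeded every control for 9 of the 30 and fell short of every control for 0, against 8.80% and 6.84% of all probe sets. At an unadjusted p under 0.05 in limma, 6 of the 30 were higher and 0 lower, against 1.65% and 1.39% of all probe sets. Their median difference was 0.14, with 24 higher and 6 lower. Birc3, which encodes a ubiquitin ligase bound to TRAF proteins, had 1961.5 and 1994.5 on the TNF-LTBR arrays and 611.3, 556.3 and 811.3 on the control arrays (1421392_a_at), a difference of 1.58 (SE 0.20). Its other probe set, 1425223_at, was dim and overlapped, with 20.4 and 75.2 on the TNF-LTBR arrays and 46.6, 53.8 and 26.4 on the control arrays, a difference of 0.015 (SE 0.48). Its relative Birc2 had 3026.5 and 2866.1 on the TNF-LTBR arrays and 919.5, 938.9 and 1376.3 on the control arrays, a difference of 1.46 (SE 0.21).

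Traf1, an NF-kB-induced adaptor that binds the Tnfrsf9 protein, had 149.5 and 57.4 on the TNF-LTBR arrays and 28.5, 3.4 and 6.7 on the control arrays by 1423602_at, a difference of 2.03 (SE 0.52). Probe set 1423602_at was dim and did not pass the brightness filter. The other Traf1 probe set, 1445452_at, passed that filter, and its groups overlapped. It had 108.1 and 51.6 on the TNF-LTBR arrays and 66, 97.1 and 43.9 on the control arrays, a difference of 0.16 (SE 0.43). As a check of the response, 4 genes known as targets of NF-kB, namely Nfkb2, Nfkbia, Birc3 and Traf1, were measured by 11 probe sets. Both TNF-LTBR arrays exceeded every control for 9 of the 11, against 8.80% of all probe sets, and the groups overlapped for 2, 1 each of Birc3 and Traf1. Several of the 11 measure the same gene, Nfkbia above all, and those of Birc3 and Traf1 were also counted among the adaptors. They are therefore not separate observations. The median difference was 1.20, and none passed over all probe sets. Nfkbia encodes an inhibitor of NF-kB. The brightest Nfkbia probe set (1420088_at) had 14671.3 and 17861.9 on the TNF-LTBR arrays and 10474.5, 5885.4 and 12049 on the control arrays. These lists, like the receptors, were chosen with earlier results of these data known, so their counts are a description.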

How the data were processed

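RNA was biotin-labelled by in vitro transcription and hybridised to 5 one-colour arrays, per the labels' protocols. The deposited values were linear intensities, 1 per probe set and array, made with GCOS 1.4 per the submitters' processing notes; how probes were summarised, and to what target, is not stated there. The mean without 2% at each end was 500.0 on every array, so values were used as deposited. Per the platform annotation 34958 probe sets had 1 symbol, 932 several and 9211 none, and all 18 receptor probe sets matched RefSeq by Entrez ID.

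All 45101 probe sets were fitted as log2(intensity + 16) in R 4.3.3 with limma 3.58.1 (lmFit, eBayes, intensity trend; 3 residual degrees of freedom), and two-sided p-values were adjusted over all of them by Benjamini-Hochberg. With 3 and 2 arrays, no exact two-sided permutation p can be below 0.1, and the number of arrays limits the precision. The fit was also run on simulated data with noise drawn independently for each array. The arrays here share a component that crosses the titles, so that run does not gauge the p-values. The receptors, lists and markers were chosen with earlier results of these data known. Named were all receptor probe sets, up to 3 probe sets per list with the smallest p, preset ligands and response genes, and the 5 nearest patterns to Tnfrsf9. Alternatives were pseudocounts 1 and 64, 2 brightness filters, 2 normalizations, no trend, array weights, a replicate block, no suffixed probe sets and leaving out each array. Deviations from group means correlated between same-numbered arrays at r = 0.12 (number 1) and -0.69 (number 2), and the numbers were not taken as pairs. With 2 TNF-LTBR arrays their deviations mirror each other, so these values are not independent of those across numbers. Across numbers, r was 0.69 for control array 2 with TNF-LTBR array 1 and 0.71 for control array 3 with TNF-LTBR array 2.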

Additional observations from a re-analysis of the deposited data

How the results depend on the processing

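No setting called a probe set of the table or a receptor. Over 249 pairs of a receptor probe set and another setting, the direction held in 211 and turned in 38. The 3 probe sets of Tnfrsf9, 1448951_at of Tnfrsf1b and Tnfrsf14 kept theirs throughout; over the alternatives other than leaving out control array 3 and TNF-LTBR array 2 together, Tnfrsf9 1460469_at ranged from 1.65 to 2.18, with limma adjusted p from 0.855 to 1. The number at an unadjusted p under 0.05 in limma was 1369 of 45101 in the main fit. It was 533 of 27060 with the brightness filter and 192 of 10916 with 1 probe set per gene. Fewer were tested there, and the share was lower too. With 1 control array left out it was 1082 to 1536 of 45101. Receptor probe sets above every control numbered 2 of 13 (15.4%) with the filter, against 7.79% of all probe sets tested there. With 1 probe set per gene they numbered 1 of 8 (12.5%), against 6.94%. The others were not tested in these settings. With 1 control array left out they numbered 4 to 6 of 18 (22.2% to 33.3%), against 13.8% to 16.4% of all probe sets. Without TNF-LTBR array 1 the shares were 44.4% of the receptor probe sets and 20.9% of all. Without TNF-LTBR array 2 they were 33.3% and 31.3%. Whichever 1 array was left out, 0 to 1 of the 18 lay below every control, against 11.6% to 23.8% of all probe sets. Leaving out 1 array gave medians of -0.02 (without control array 3) to 0.33 (without control array 2) for the receptors, -0.023 to 0.18 for ligands, 0.045 to 0.45 for other receptors and 0.10 to 0.43 for adaptors. It gave differences of -0.33 to 0.22 for Tnfrsf1a, -0.30 to 1.16 for Tnfrsf1b 1418099_at, -0.22 to 0.14 for Ltbr, -0.21 to 0.72 for Fas, -0.72 to 0.45 and -2.24 to 0.80 for Tnfrsf11b, -0.67 to 1.40 and -0.70 to 0.92 for Tnfrsf12a, -0.39 to 0.38 and -1.80 to 0.66 for Tnfrsf21, and -0.60 to 0.33, -0.58 to 0.73 and -0.14 to 0.54 for Cd40. Cd40 1449473_s_at was 0.16 with pseudocount 1 and Cd40 1460415_a_at -0.012 with pseudocount 64. With array weights, Cd40 was 0.10 (1449473_s_at) and -0.030 (1460415_a_at), Tnfrsf11b 1449033_at 0.052 and Tnfrsf12a 1418572_x_at -0.20. With the replicate block, in which control array 3 has no partner, the values were those without that array: Cd40 0.21 (1449473_s_at) and -0.27 (1460415_a_at), Fas -0.17, Tnfrsf11b 1449033_at 0.27, and Tnfrsf12a -0.58 and -0.67. The receptor median was then -0.02, with 0 called. Without control array 3 and TNF-LTBR array 2, a setting chosen after seeing the data, 2596 probe sets had an unadjusted p under 0.05, 8 receptor probe sets (44.4%) were above and 1 (5.56%) below every control, against 39.5% and 30.6% of all probe sets, Tnfrsf9 was 1.54 (1460469_at, limma adjusted p = 0.821) and 1.17 (1428034_a_at), and the differences that turned were Cd40 0.097 and -0.92 and Tnfrsf21 0.25 and 0.20. For the values that turned, the cause was not tested. Cd40 and Tnfrsf14 lay below the array medians, where signal over background limits any reading.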
